A study of Mus musculus with 20 samples.

Results

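The 33 genes described here act in the cell division cycle. They were taken by name from the 26214 genes listed in both of the authors' deposited tables, and all 33 were found and carried a p-value in each. Of these, 10 belong to S phase or to the step from G1 into S phase, 2 are D cyclins, and 21 were classed as mitotic. The mitotic class is broad and holds Mki67, Top2a and Ccna2, which an alternative left out. RNA came from the heart apex of 20 uninjured wild-type FVB/NRj mice aged 28 days after birth. AAV9, a viral vector with good access to the heart, had been injected behind the eye. A CMV control group, a CMV Zeb2os group, an hTNNT2 control group and an hTNNT2 Zeb2os group held 5 mice each. Zeb2os is a long noncoding RNA antisense to Zeb2. CMV is a promoter active in many cell types, whereas hTNNT2 is the human cardiac troponin T promoter, used for expression in heart muscle cells. The sources used here do not say what the control vectors carried. Males numbered 2 of 5 in the CMV control group, 1 of 5 in CMV Zeb2os, 0 of 5 in the hTNNT2 control group and 3 of 5 in hTNNT2 Zeb2os. With hTNNT2, sex and Zeb2os therefore cannot be fully told apart.

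A cell enters division when D cyclins, with their kinases, inactivate the retinoblastoma protein and set E2F factors free. E2F then switches on genes for copying DNA, such as the MCM helicase subunits and the enzymes that make nucleotides. Genes of mitosis come on later, and the MuvB complex with B-MYB and FOXM1 drives many of them through a short promoter element, the CHR, often beside CCAAT boxes bound by NF-Y. Heart muscle cells of mammals mostly leave the cycle soon after birth, while other cells of the heart can still divide.

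Promoters of the members are shown first since these elements can be read in them. A RefSeq promoter of 300 bases on GRCm38.p6, from 250 bases before the start of transcription to 50 after it, was found for 26 of the 33 members. None was matched for Ccne2, Ccnd1, Ccnd2, Ccna2, Aurkb, Kif20a and Tpx2. Each was searched on both strands, with overlapping matches counted, for the CHR (TTTGAA), the NF-Y box (CCAAT) and an E2F site (either TTCCCGC or else TTCGCGC or else TTGCCGC or else TTGGCGC). The first 3 promoters belong to S phase genes, namely the helicase subunits Mcm3 (chr1:20820263-20820562, minus strand) and Mcm6 (chr1:128359656-128359955, minus strand) and the ribonucleotide reductase subunit Rrm2 (chr12:24708004-24708303, plus strand). The other 3 belong to mitotic genes, namely Cdc20 (chr4:118437294-118437593, minus strand), Ccnb2 (chr9:70421505-70421804, minus strand) and Cdk1 (chr10:69352863-69353162, minus strand). Rrm2 and Cdc20 are printed because they had the smallest p-values with hTNNT2, and the others because they hold several matches. Capitals mark every match to any of these motifs, and where E2F matches overlap, as in Mcm3 and Mcm6, they run together.
Mcm3: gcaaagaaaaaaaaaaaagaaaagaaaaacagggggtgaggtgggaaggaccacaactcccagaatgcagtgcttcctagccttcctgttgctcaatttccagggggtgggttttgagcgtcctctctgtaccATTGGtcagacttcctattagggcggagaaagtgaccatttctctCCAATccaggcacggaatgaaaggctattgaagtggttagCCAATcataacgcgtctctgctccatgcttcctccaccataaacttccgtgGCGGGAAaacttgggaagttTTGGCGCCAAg
Mcm6: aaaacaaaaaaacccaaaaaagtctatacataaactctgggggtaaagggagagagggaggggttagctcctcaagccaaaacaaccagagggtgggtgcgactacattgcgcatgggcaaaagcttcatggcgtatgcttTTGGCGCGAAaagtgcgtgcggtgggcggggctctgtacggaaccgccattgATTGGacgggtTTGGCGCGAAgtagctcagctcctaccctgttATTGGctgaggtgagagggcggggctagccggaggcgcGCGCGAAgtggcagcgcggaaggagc
Rrm2: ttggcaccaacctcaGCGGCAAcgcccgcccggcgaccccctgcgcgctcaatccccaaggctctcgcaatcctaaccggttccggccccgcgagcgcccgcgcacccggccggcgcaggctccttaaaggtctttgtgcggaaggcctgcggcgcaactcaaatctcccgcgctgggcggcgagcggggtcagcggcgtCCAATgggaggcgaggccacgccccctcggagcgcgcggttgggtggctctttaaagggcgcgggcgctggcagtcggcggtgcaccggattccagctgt
Cdc20: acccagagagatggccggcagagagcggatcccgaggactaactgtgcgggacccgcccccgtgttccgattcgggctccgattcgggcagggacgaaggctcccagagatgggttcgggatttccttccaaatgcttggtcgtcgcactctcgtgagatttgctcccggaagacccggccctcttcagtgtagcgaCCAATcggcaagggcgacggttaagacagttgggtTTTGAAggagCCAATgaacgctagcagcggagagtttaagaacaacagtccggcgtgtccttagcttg
Ccnb2: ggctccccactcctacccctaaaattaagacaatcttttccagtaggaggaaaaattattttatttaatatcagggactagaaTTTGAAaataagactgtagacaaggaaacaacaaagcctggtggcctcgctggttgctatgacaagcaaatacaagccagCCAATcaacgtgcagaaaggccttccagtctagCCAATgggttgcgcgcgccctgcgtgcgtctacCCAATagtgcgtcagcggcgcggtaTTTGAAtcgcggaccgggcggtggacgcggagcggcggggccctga
Cdk1: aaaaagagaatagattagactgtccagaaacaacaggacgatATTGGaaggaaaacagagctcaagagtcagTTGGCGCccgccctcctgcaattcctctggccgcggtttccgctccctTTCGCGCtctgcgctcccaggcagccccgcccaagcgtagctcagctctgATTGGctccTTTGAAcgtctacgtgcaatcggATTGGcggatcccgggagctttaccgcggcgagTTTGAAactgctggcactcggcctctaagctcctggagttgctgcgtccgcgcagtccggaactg

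A CHR stood in 12 of 17 mitotic promoters (70.6%), in 1 of 9 S phase promoters (11.1%, Mcm2) and in 17.9% of all 32851 promoters in the RefSeq table. An E2F site stood in 4 of 9 S phase promoters (44.4%), those of Mcm3, Mcm5, Mcm6 and Rrm2. It stood in 3 of 17 mitotic promoters (17.6%), those of Mki67, Ccnb1 and Cdk1, and in 9.57% of all promoters. An NF-Y box was frequent in both, with 14 of 17 mitotic promoters (82.4%) and 6 of 9 S phase promoters (66.7%), against 37.4% of all. A CHR and an NF-Y box stood together in 11 of 17 mitotic promoters (64.7%) and in 6.95% of all promoters. Cdk1, the kinase that starts mitosis, held all 3 motifs, as did Mki67. In Ccnb1 the E2F and NF-Y matches overlap. A match of this kind describes the letters and is not evidence of binding, and the 300 bases leave out sites farther away. The window of E2f1 (chr2:154569377-154569676, minus strand) lies wholly inside the gene as GENCODE M21 places it (154559407 to 154569892). For E2f1, which is counted here as without a match, bases before that gene start were not searched.

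**Figure D1:**
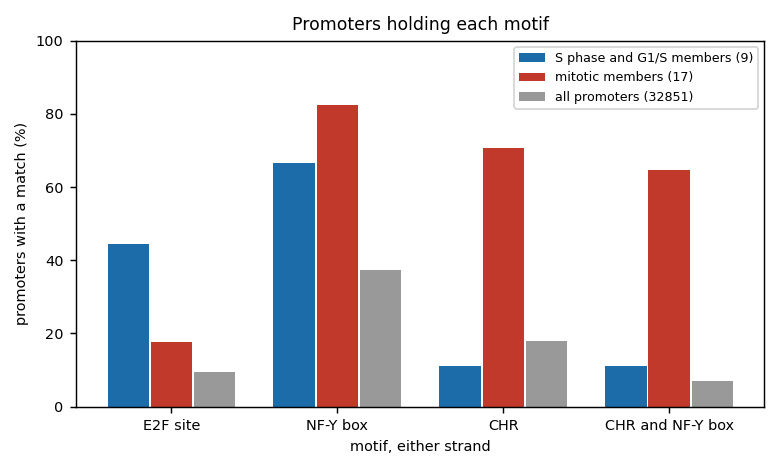
Share of promoters (percent, vertical axis) that hold each motif on either strand, for the 9 S phase and G1/S members (blue), the 17 mitotic members (red) and all 32851 promoters (grey). The CHR stands in 70.6% of mitotic promoters and 11.1% of S phase promoters.

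Zeb2os checks the labels. Its log2 fold change over the control was 3.66 (SE 0.071) by the authors' deposited CMV table and 4.53 (SE 0.083) by the authors' deposited hTNNT2 table. Mean normalised counts of all genes added up to 44295571 (CMV) and 51284505 (hTNNT2) by the authors' deposited tables. Each deposited level is a mean over 10 mice, both arms together, and values per mouse were not analysed here. The tissue was heart muscle by its markers, with a mean count of 228317 for Tnnt2 and 238857 for Myl2 in the authors' deposited CMV table. Lymphocyte markers were near the floor, with 8 markers summing to a mean count of 151 (CMV) and 202 (hTNNT2) by the authors' deposited tables. In these whole-tissue samples, fewer cells of a type and less RNA per cell cannot be told apart.

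All 33 genes had a mean count of at least 49.3 in the CMV table, and their levels differed widely. Per kilobase of exon (GENCODE M21), mean counts ran from 16.5 (CMV) and 21.3 (hTNNT2) for Ccnb1, a cyclin that activates Cdk1, to 1081 and 1307 for the D cyclin Ccnd2, from the means by the authors' deposited tables. Ccnd1 followed at 696 and 762 per kilobase, then Pcna, the sliding clamp of DNA polymerase, at 358 and 406, from the authors' deposited tables. Of the mitotic genes, the proliferation marker Mki67 stood highest per kilobase at 279 and 321, ahead of the topoisomerase Top2a at 138 and 163, from the authors' deposited tables. The other 28 members all stood below Top2a in the hTNNT2 table, while with CMV Mcm3 stood above it at 148. Ccne1, the cyclin of S phase entry, was next to lowest at 18.5 and 22.2 per kilobase. The order was nearly the same in both tables (Spearman's rho of the mean counts 0.995 over 33 genes, a description). The ratio of hTNNT2 to CMV means ran from 1.03 to 1.29 with a median of 1.14, where it was 1.16 for the median of 13190 genes with means of 50 or more. These tables were normalised separately, so that ratio is not a difference between promoters.

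**Figure D2:**
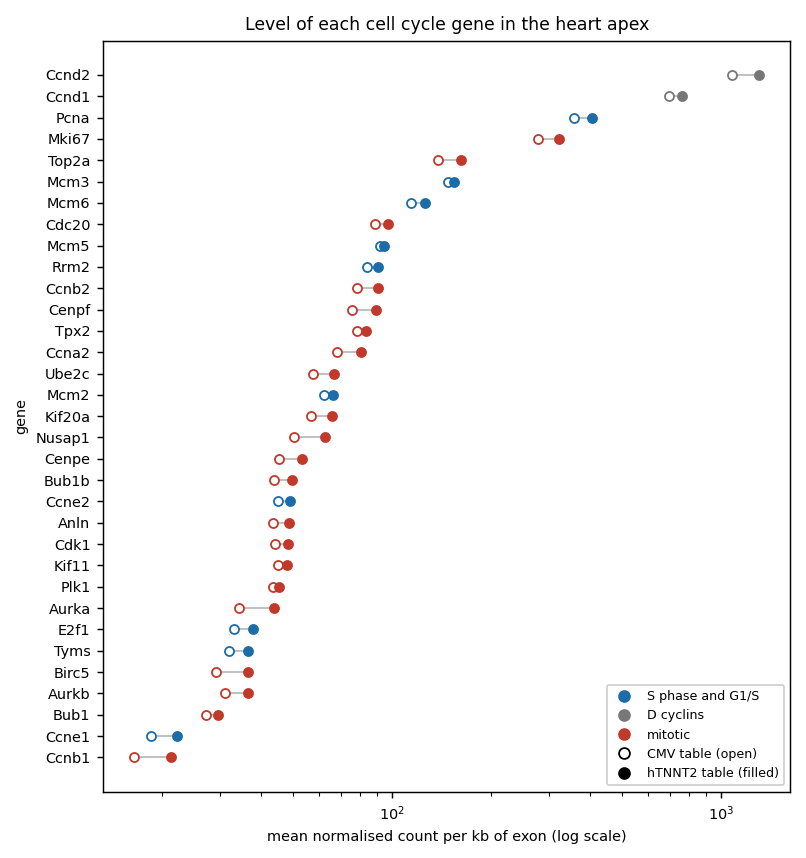
Mean normalised count per kilobase of exon (log axis) of each of the 33 members in the CMV table (open) and the hTNNT2 table (filled), coloured by class. Each point is a mean over 10 mice without an error. The D cyclins stand highest and Ccnb1 lowest.

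With the CMV promoter, 0 of 33 members passed the authors' test of Zeb2os against its control at an adjusted p under 0.05 (DESeq2), where 0.00469% of all genes tested did. That share was 1 of 21318 genes, Zeb2os itself. No other gene passed, so the 0 is not particular to the members. At an unadjusted p under 0.05, 0 members were higher or lower, beside 0.661% and 1.01% of all genes. Of 33 log2 fold changes, 25 were above 0 by the authors' deposited CMV table, as were 48.3% over all genes. That was 6 of 10 for S phase, 0 of 2 for D cyclins and 19 of 21 for mitotic genes. Genes of the cycle vary together, so such a count is not 33 separate observations. The median log2 fold change by the authors' deposited CMV table was 0.0045 for S phase, -0.015 for D cyclins and 0.012 for mitotic genes. The median deposited SE of a single member was 0.051, which is not the error of a class median.

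Single S phase values with CMV lay close to 0. By the authors' deposited CMV table Mcm3 had a log2 fold change of 0.0071 (SE 0.067), Mcm5 of 0.0031 (SE 0.053) and Mcm6 of -0.0012 (SE 0.048). Together with Mcm2 (-0.035, SE 0.056, by the authors' deposited CMV table) these are subunits of the helicase that unwinds DNA. Ccne2, the second E cyclin, had the highest value of all 33, 0.065 (SE 0.069), by the authors' deposited CMV table. Among mitotic genes the highest was Ccnb2, a B cyclin, at 0.054 (SE 0.048, p = 0.259, the smallest unadjusted p of the 33) by the authors' deposited CMV table. Cenpf, a kinetochore protein, followed at 0.050 (SE 0.057) by the authors' deposited CMV table. The lowest mitotic values were those of Birc5, survivin of the chromosomal passenger complex, at -0.0077 (SE 0.052), and Anln, anillin of the contractile ring, at -0.00089 (SE 0.042), by the authors' deposited CMV table. The other 17 mitotic values lay between 0.0013 (Cdk1) and 0.029 (Aurka) by the authors' deposited CMV table. The adjusted p was 1 for every member.

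With the hTNNT2 promoter, 0 of 33 members had an adjusted p below 0.05 by the authors' deposited hTNNT2 table (DESeq2), where 0.0385% of all genes did. That share was 7 of 18169 genes, Zeb2os and Lyz2 among them. At an unadjusted p under 0.05, 2 members were higher and 0 lower, beside 2.27% and 1.64% of all genes. Of 13358 genes with means of 50 or more, 411 were higher and 280 lower at that p. Log2 fold changes above 0 stood beside 31 of 33 members by the authors' deposited hTNNT2 table and 47% of all genes. That was 8 of 10 for S phase, 2 of 2 for D cyclins and 21 of 21 for mitotic genes. The median log2 fold change by the authors' deposited hTNNT2 table was 0.092 for S phase, 0.090 for D cyclins and 0.055 for mitotic genes, against -0.00080 over all genes tested.

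The clearest single value belonged to Rrm2, which supplies deoxynucleotides for DNA synthesis (GRCm38 chromosome 12, 24708241 to 24714146). Its log2 fold change was 0.19 (SE 0.075, p = 0.0123, adjusted p = 0.853) with hTNNT2 by the authors' deposited hTNNT2 table, and 0.025 (SE 0.057) with CMV. All 4 helicase subunits lay in the same range with hTNNT2. By the authors' deposited hTNNT2 table Mcm5 stood at 0.14 (SE 0.076, p = 0.0576), Mcm2 at 0.14 (SE 0.082), Mcm3 at 0.14 (SE 0.080) and Mcm6 at 0.11 (SE 0.067). Lower down were E2f1, the activator of this programme, at 0.072 (SE 0.074), Pcna at 0.065 (SE 0.075) and the thymidylate synthase Tyms at 0.033 (SE 0.075) by the authors' deposited hTNNT2 table. The E cyclins were the only members below 0, Ccne1 at -0.0062 (SE 0.070) and Ccne2 at -0.032 (SE 0.083), by the authors' deposited hTNNT2 table. The D cyclins stood at 0.11 (SE 0.083, Ccnd1) and 0.069 (SE 0.071, Ccnd2) by the authors' deposited hTNNT2 table.

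Cdc20, which activates the anaphase-promoting complex, led the mitotic genes (GRCm38 chromosome 4, 118432901 to 118437352). Its log2 fold change with hTNNT2 was 0.15 (SE 0.067, p = 0.0235, adjusted p = 0.989), and with CMV 0.015 (SE 0.042), by the authors' deposited tables. The mitotic kinesin Kif20a stood at 0.11 (SE 0.078) and Cdk1 at 0.097 (SE 0.056, p = 0.0845) with hTNNT2 by the authors' deposited hTNNT2 table. Next came the spindle protein Nusap1 at 0.088 (SE 0.069), the kinase Plk1 at 0.084 (SE 0.056) and Ube2c, a ubiquitin-conjugating enzyme of mitotic exit, at 0.078 (SE 0.067) by the authors' deposited hTNNT2 table. Values between 0.035 and 0.068 belonged to 14 of the other 15 mitotic genes by the authors' deposited hTNNT2 table. They include Mki67 at 0.064 (SE 0.054), Top2a at 0.054 (SE 0.053) and Ccnb1 at 0.060 (SE 0.057) by the authors' deposited hTNNT2 table. The motor proteins Kif11 and Cenpe stood at 0.050 (SE 0.057) and 0.037 (SE 0.054), and the checkpoint proteins Bub1 and Bub1b at 0.035 (SE 0.044) and 0.059 (SE 0.054), by the authors' deposited hTNNT2 table. The kinase Aurka was lowest at 0.021 (SE 0.067) by the authors' deposited hTNNT2 table.

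**Figure D3:**
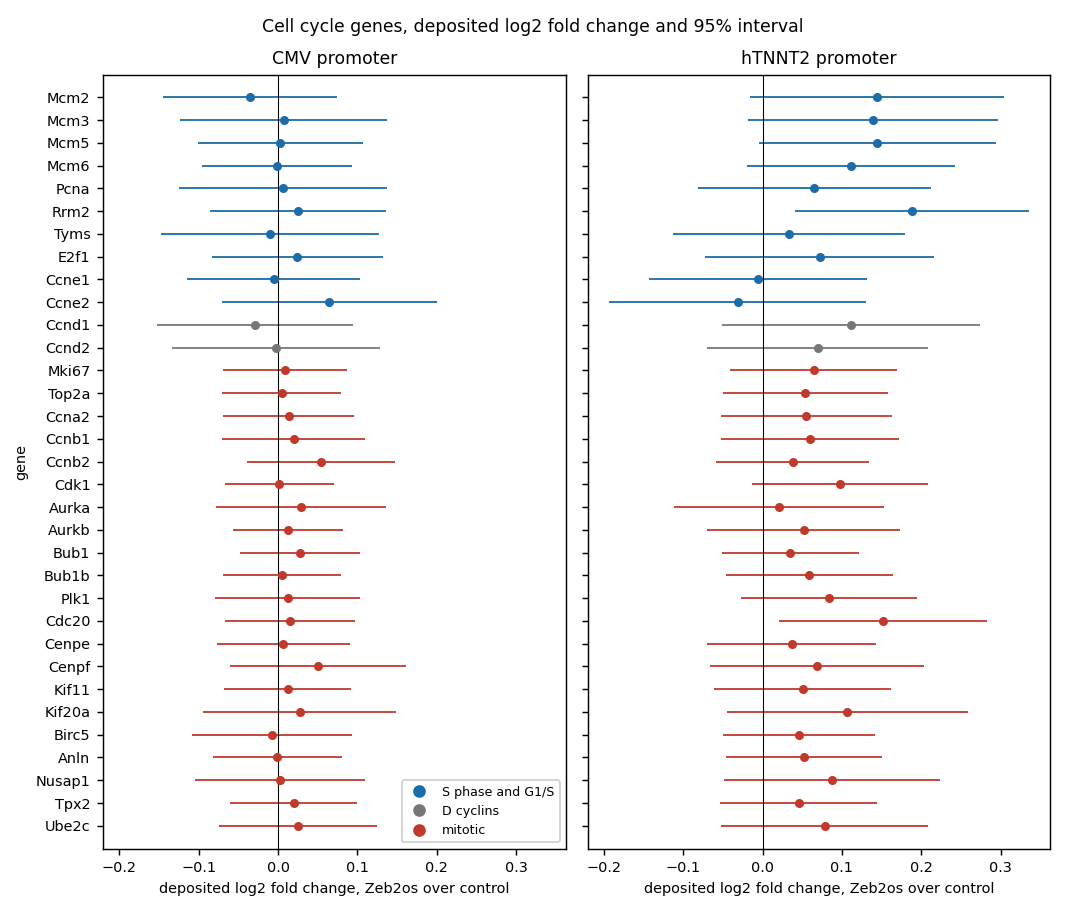
Deposited log2 fold change of Zeb2os over its control (horizontal axis) for the 33 members with CMV (left) and hTNNT2 (right). Points are the authors' values, and bars are 95% intervals from the deposited SE. With hTNNT2 the bars of Rrm2 and Cdc20 lie above 0, neither with an adjusted p under 0.05, and with CMV all bars cross 0.

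Markers of other cell types were read beside the members. All 9 macrophage markers were higher by the authors' deposited hTNNT2 table (median log2 fold change 0.14), among them Lyz2, which passed at 0.34 (SE 0.071, adjusted p = 0.0154). Fibroblast markers were higher for 7 of 8 (median 0.14) and smooth muscle and pericyte markers for 8 of 8 (median 0.11) by the authors' deposited table. Endothelial markers were higher for 4 of 9 (median -0.0016) and cardiomyocyte markers for 0 of the 8 with a p-value (median -0.058) by the authors' deposited table. The ninth cardiomyocyte marker, Myl7, had no p-value and was left out, with a log2 fold change of 0.030 by the authors' deposited hTNNT2 table. With CMV the counts were 4 of 9 for macrophages, 6 of 8 for fibroblasts, 0 of 8 for smooth muscle, 1 of 9 for endothelium and 7 of 8 for cardiomyocytes, Myl7 again left out, by the authors' deposited table. Of the erythroid list, 4 globin genes were listed at 0 in both tables, and the other 3 markers were lower with CMV (3 of 3) and higher with hTNNT2 (3 of 3) by the authors' deposited tables. Summed mean counts over both arms, in the CMV and hTNNT2 tables, were 14698 and 16653 for macrophage markers, 142614 and 165807 for fibroblast markers, and 85356 and 99676 for smooth muscle markers. Lymphocyte markers were higher for 7 of 8 with CMV and 1 of 8 with hTNNT2 by the authors' deposited tables. The part of these cell types, and that of sex, in the cell cycle values was not tested.

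The difference between promoters was then tested directly, by subtracting the CMV log2 fold change from that of hTNNT2 and dividing by their combined SE. Of 33 members, 0 differed at an adjusted p under 0.05 (Benjamini-Hochberg over 20754 genes), where 0.00482% of all genes did. That share was 1 gene, so the 0 is not particular to the members. At an unadjusted p under 0.05, 0 members were higher with hTNNT2, beside 1.66% of all genes, and 0 were lower, beside 0.988%. The difference was above 0 for 29 of 33 members and for 49% of all genes, whose median was -0.00051. It had a median of 0.086 for S phase, 0.11 for D cyclins and 0.049 for mitotic genes. It was largest in proportion to its error for Mcm2, at 0.18 (SE 0.099, normal p = 0.0702 computed from the authors' deposited values, adjusted p = 1). Log2 fold changes were above 0 in both of the authors' deposited tables for 24 members, 19 of them mitotic. The hTNNT2 values are therefore not shown to differ from the CMV values for any member.

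How S phase compares with mitosis depends on a property of the deposited scale. In both of the authors' deposited tables the SE of the log2 fold change has a ceiling, 0.071 (CMV) and 0.083 (hTNNT2), and it falls again for genes that are measured poorly. Of the SEs, 1743 of 21325 and 1609 of 21475 lie within 1% of that ceiling. This is the form that DESeq2 gives when fold changes are drawn toward 0 with a normal prior, here one with an SD of 0.14 (CMV) and 0.17 (hTNNT2) on the log2 scale. The prior was inferred from the values and the sources used here do not state it. Under it a low SE can mean a gene that was measured well or one that varied strongly between mice and was drawn nearly to 0. Each deposited SE then has a smaller and a larger unshrunken solution. The smaller is impossible where it lies under the error that read sampling alone gives at that mean count with 5 mice in an arm. The authors' p-values do not depend on this, since both solutions keep the ratio of a fold change to its SE. The difference between promoters does, since it was taken between values drawn toward 0 by unequal priors.

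For many mitotic genes the low SE can be read in a single way. With CMV, the larger solution was the only possible one for 14 of 21 mitotic genes, for 2 of 10 S phase genes (E2f1 and Ccne1) and for 9.89% of all genes with means of 50 or more. With hTNNT2 it was the only one for 8 of 21 mitotic genes, for Ccne1 among S phase genes and for 6.38% of all such genes. These 8 were Ccnb1, Ccnb2, Aurka, Aurkb, Bub1, Bub1b, Plk1 and Birc5, all of them among the 14 with CMV. The share over all genes falls steeply with the mean count, and part of the mitotic count goes with that. With CMV it was 5 of 5 mitotic genes at means of 50 to 100, where 87.8% of 1111 genes were alike. At 100 to 200 it was 5 of 5 mitotic genes and 1 of 3 S phase genes, beside 19.4% of 1343 genes. At 200 to 400 it was 4 of 8 and 0 of 2, beside 3.05% of 1735 genes, and at 1000 to 5000 it was 0 of 3 mitotic genes, beside 0.0423%. With hTNNT2 it was 1 of 1 mitotic gene at 50 to 100 (63.4% of 1055 genes), 6 of 8 at 100 to 200 (11.4% of 1283) and 1 of 7 at 200 to 400 (1.66% of 1622). Above 400 it was 0 of 5 mitotic genes with hTNNT2. The deposited SEs of the 33 genes ranked alike in the tables, which share no mice (Spearman's rho 0.80, a description over genes that vary together). The SE goes with the mean count, whose ranks were nearly the same (rho 0.995), and no rho over all genes was taken. Nothing about mitotic genes in particular is drawn from it.

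**Figure D4:**
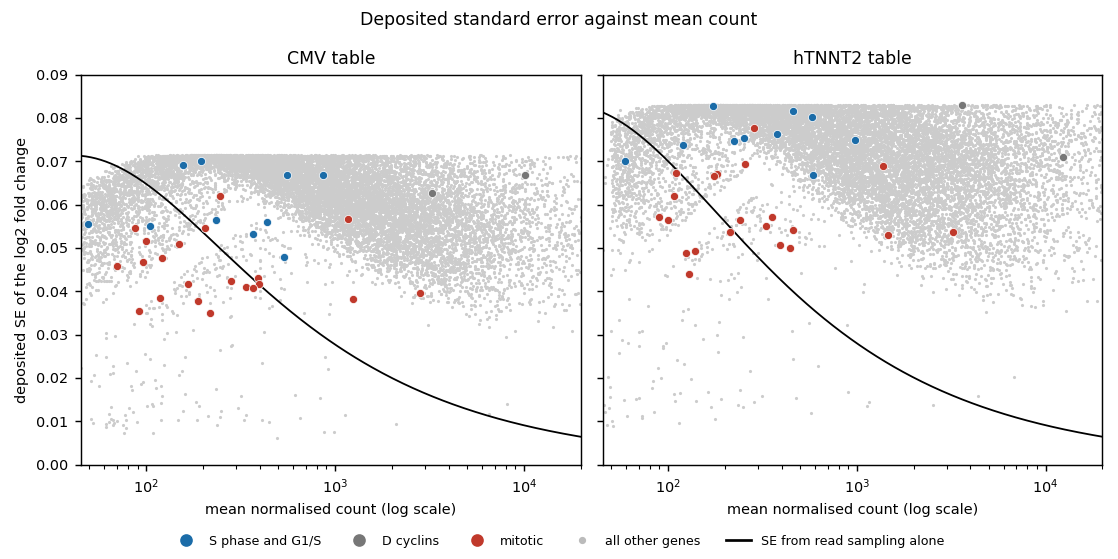
Deposited SE of the log2 fold change against mean normalised count (log axis) for the members (coloured) and all other genes whose mean count reaches 50 (grey), CMV left and hTNNT2 right. The black line is the SE that read sampling alone would give after shrinkage. Points under it can have only the larger unshrunken SE, as 14 mitotic genes do with CMV and 8 with hTNNT2.

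For those genes the spread between mice that the SE implies was wide, in part because of how they were picked. The smaller and larger solutions have a fixed product, so a smaller one under the sampling error sets a lower limit to the larger. No value over all genes picked in this way is given. The implied coefficient of variation, with read sampling taken off, was 31.9% to 59.2% (median 47.5%) for the 14 mitotic genes with CMV and 34.1% to 62.7% (median 47.0%) for the 8 with hTNNT2. It was highest with hTNNT2 for Bub1, a kinase of the spindle checkpoint. Of the other mitotic genes on a list of 40, with a mean count of at least 50, the larger solution was the only one for 22 of 36 with CMV and 14 of 37 with hTNNT2. For other replication genes it was the only one for 9 of 27 and 5 of 27. It was the only one for 9.89% and 6.38% of all genes with such a mean, not matched for count. It was the only one for 0 of 8 cardiomyocyte, 0 of 9 endothelial, 0 of 8 fibroblast, 0 of 9 macrophage and 0 of 8 smooth muscle markers in both tables. The cardiomyocyte markers with a p-value, all endothelial and smooth muscle markers, and all fibroblast markers but Tcf21 had means above 1000. Few genes of any kind have that solution alone there, 0.0423% (CMV) and 0.0608% (hTNNT2) at means of 1000 to 5000. The counts of 0 for cardiomyocyte, endothelial, fibroblast and smooth muscle markers therefore cannot be set against those of the mitotic genes. Means of the 9 macrophage markers ran from 117 to 3961 with CMV, and their counts of 0 were not matched for mean count. The larger solution was the only one for 8 of 8 lymphocyte markers in both tables, of which 1 had a mean count of 50 or more. Of 2 erythroid markers with such a mean, it was the only one for 1 with CMV and 0 with hTNNT2. These counts are descriptions without a test.

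Undoing the shrinkage widened the mitotic values together with their errors. For the 8 mitotic genes with a single solution, unshrunken log2 fold changes with hTNNT2 ran from 0.10 to 0.63 (median 0.45, a fold of 1.36), where the authors' deposited table has 0.021 to 0.084. Their SEs ran from 0.32 to 0.58, and the way these genes were picked also sets a lower limit to such SEs. Each fold change is enlarged by a factor that grows with its SE, so the pick enlarges the fold changes too. Plk1 stood highest at 0.63 (SE 0.42, 95% interval -0.20 to 1.45), a fold of 1.54. Bub1b, of the spindle checkpoint, stood at 0.50 (SE 0.45) and Birc5 at 0.48 (SE 0.51). With CMV the 14 genes ran from -0.050 to 0.42 (median 0.16, a fold of 1.12), highest for Ccnb2 at 0.42 (SE 0.37), a fold of 1.34. The 95% interval of each of these genes includes 0.

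For genes with both solutions the deposited values do not tell which of them holds. With hTNNT2, Cdc20 stood at 0.19 (SE 0.084, a fold of 1.14) or at 0.74 (SE 0.33, 95% interval 0.099 to 1.38, a fold of 1.67). Rrm2 stood at 0.27 (SE 0.11, a fold of 1.20) or at 0.65 (SE 0.26, a fold of 1.57). Cdk1 stood at 0.11 (SE 0.065) or 0.73 (SE 0.42), and Mki67 at 0.073 (SE 0.061) or 0.54 (SE 0.45). Mcm2 was narrower, at 0.25 (SE 0.14) or 0.35 (SE 0.20). On the deposited scale the S phase median exceeded the mitotic one by 0.036 with hTNNT2. With the smaller solution wherever it was possible the excess was 0.0069, and with the larger solution throughout it turned to -0.13. With CMV the S phase median was lower by any of these measures (-0.0079 as deposited, -0.093 and -0.12 unshrunken). No order of S phase and mitosis with hTNNT2 holds across these scales.

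**Figure D5:**
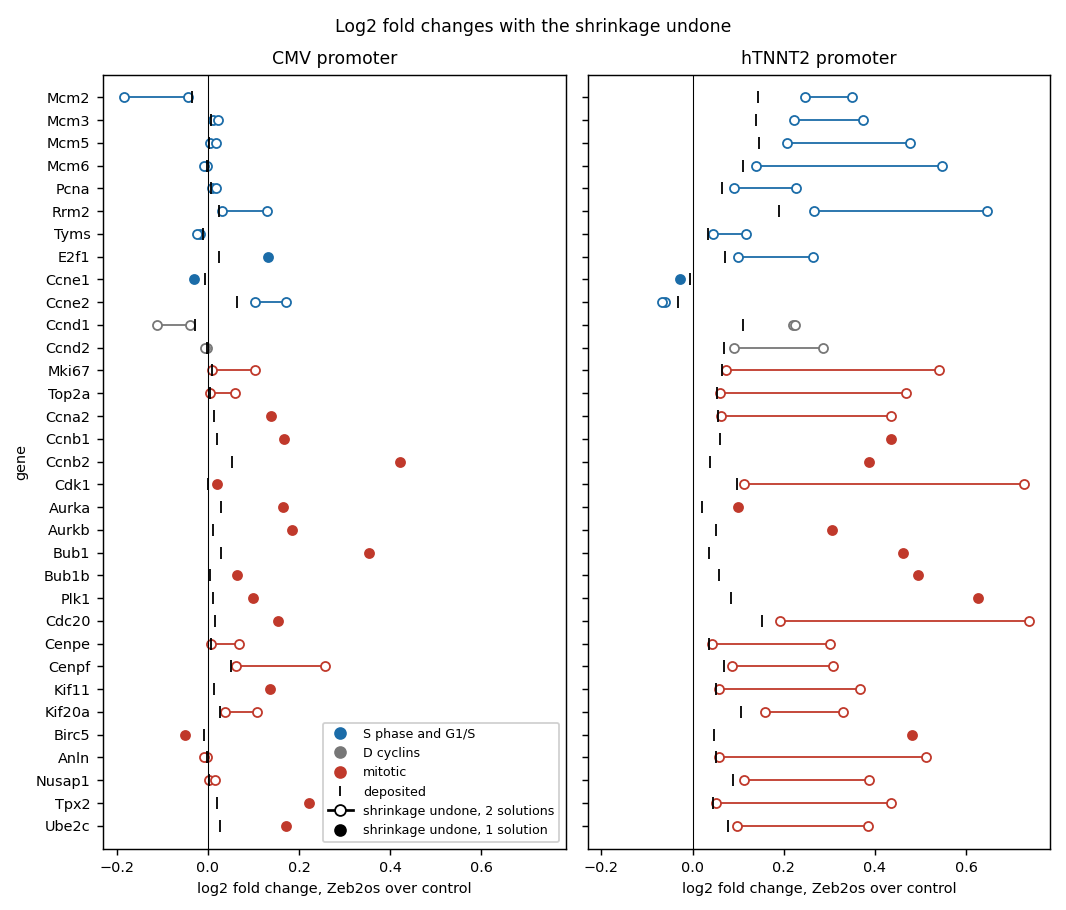
Log2 fold change of Zeb2os over its control (horizontal axis) with the shrinkage undone, CMV left and hTNNT2 right. Ticks are deposited values, filled points have 1 solution, and open points joined by a line are the smaller and larger solutions, drawn without their errors. With hTNNT2, Plk1 moves from 0.084 to 0.63.

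Genes around the 33 were read from lists of the same pathway. Of 28 other replication genes, 0 passed with either promoter by the authors' deposited tables. They were above 0 for 24 with hTNNT2 (median log2 fold change 0.098, 4 at an unadjusted p under 0.05) and for 19 with CMV (median 0.015, 0 at that p). All 4 were higher, beside 2.27% of all genes. By the authors' deposited table for hTNNT2, Mcm4, a helicase subunit outside the 33, stood at 0.22 (SE 0.081, p = 0.00793, adjusted p = 0.720). The histone chaperone Chaf1a stood at 0.19 (SE 0.078, p = 0.0168) and Dtl, which targets replication factors for destruction, at 0.15 (SE 0.064, p = 0.0200) by the authors' deposited hTNNT2 table. Of 40 other mitotic genes, 0 passed or reached an unadjusted p under 0.05 in either table. They were above 0 for 37 with hTNNT2 (median 0.053) and 31 with CMV (median 0.015) by the authors' deposited tables. Examples with hTNNT2 are Incenp of the passenger complex at 0.11 (SE 0.079) and the condensin subunit Ncaph at 0.099 (SE 0.067) by the authors' deposited table.

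Of the regulators upstream, 0 passed the authors' test in either table (DESeq2). At an unadjusted p under 0.05, Myc was higher with hTNNT2, and with CMV Rbl2 was higher and Cdkn1c lower. Over all genes 2.27% were higher at that p with hTNNT2, and with CMV 0.661% were higher and 1.01% lower. Transcriptional activators of the cycle were above 0 for 7 of 7 with hTNNT2 and 3 of 7 with CMV by the authors' deposited tables. Myc, a growth and division factor, stood at 0.23 (SE 0.083, p = 0.00552, adjusted p = 0.673) with hTNNT2 and at -0.075 (SE 0.069) with CMV by the authors' deposited tables. B-MYB (Mybl2) stood at 0.070 (SE 0.059) with hTNNT2 by the authors' deposited table. Pocket proteins and repressor E2Fs, a list that also holds Lin54 of the MuvB complex, were above 0 for 6 of 9 in each table. Lin9 and Lin52 of that complex were listed with the activators. E2f4 stood at -0.13 (SE 0.071) and Rbl1 at 0.14 (SE 0.082) with hTNNT2, and Rbl2 at 0.12 (SE 0.056, p = 0.0263) with CMV, by the authors' deposited tables. CDK inhibitors, which hold the cycle back, were above 0 for 7 of 7 with hTNNT2 and 5 of 7 with CMV. Of these, Cdkn1c stood at -0.13 (SE 0.062, p = 0.0323) and Cdkn1a at -0.090 (SE 0.061) with CMV, and both above 0 with hTNNT2, at 0.038 (SE 0.075) and 0.067 (SE 0.073), by the authors' deposited tables. G1 kinases and other cyclins were above 0 for 6 of 8 in each table.

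Some counts are uncertain because other genes share bases with a member. The sources used here do not say whether reads were counted by strand. In GENCODE M21, exons on the opposite strand overlap 9 members, including those of Elovl1 over Cdc20, Oip5 over Nusap1, Exosc9 over Ccna2 and Tnnc2, a muscle troponin gene, over Ube2c. The others are Ccne2, Ccnd1, Ccnd2, Plk1 and Kif20a. The same strand holds an exon overlap of Gm23451 with Top2a, which no strand setting would resolve. Pseudogenes named after Pcna, Tyms, Ccnb1 and Ccnb2 are annotated and may take or give reads.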

How the data were processed

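The members and all gene lists were chosen with earlier results of these data known. RNA depleted of ribosomal RNA was sequenced, starting from 750 ng per mouse, per the labels' protocols. The submitters' processing notes name Trim Galore, DESeq2, GRCm38 and mm10. For the aligner, the counter, its handling of strand and the tools' versions, nothing is given in the sources used here. The authors deposited 1 comparison table per promoter, with 5 mice in each arm. Per the file headers, mean normalised counts were deposited as a signal over both arms, and fold changes with their SEs on the log2 scale. Beside them stands the Wald statistic, a score deposited per gene, to which p-values and adjusted p-values were added by the authors. Its sign was opposite to that of the fold change and was turned. The depth of each library was not used here, so no counting interval is given. Nothing in the labels says whether libraries differ in batch. P-values measure the spread between mice as the authors' model estimated it.

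A gene was called at the authors' adjusted p under 0.05 (Benjamini-Hochberg). The difference between promoters used the summed squared SEs and a 2-sided normal p. A p-value stood beside 21318 genes (CMV) and 21461 genes (hTNNT2), and an adjusted one beside 21318 and 18169. Shrinkage was undone by solving the form of a normal prior whose width follows from the largest SE, which leaves 2 solutions. The undoing was run on data simulated under that same prior, scoring the solution nearer the known value. That cannot check the prior itself or tell which solution holds. The difference test was run on normal noise of the deposited SEs, without shrinkage. Intervals are at 95%. All 33 members were named, with up to 3 genes (hTNNT2) and up to 2 (CMV) of the smallest p from each other list at a mean count of at least 50, of which some are printed, and Zeb2os. Lyz2, Tnnt2 and Myl2 come from the marker lists. Gene positions and exon lengths came from GENCODE M21, promoters from RefSeq. Python 3.11.15, numpy 2.4.6, pandas 2.3.3, scipy 1.17.1 and matplotlib 3.10.9 were used. Alternatives were an adjusted p threshold of 0.1, a mean count of at least 50, no filter, centring, the Wald statistic, means, and a sampling limit lowered by 10%.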

Additional observations from a re-analysis of the deposited data

How the results depend on the processing

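The number of members called stayed at 0 in each comparison under every alternative run. These were an adjusted p under 0.1, a mean count of at least 50, adjustment without the authors' filter, centring on the median gene and, between promoters, the Wald statistics. With CMV, leaving out the filter repeats the main result, since all 21318 genes with a p-value already had an adjusted one. Members above 0 numbered 24 (CMV) and 31 (hTNNT2) after centring. The S phase minus mitotic difference depended on the scale. With CMV (-0.0079 as deposited) it was -0.24 in the Wald statistic. It was -0.093 with the smaller unshrunken solution wherever that was possible, and -0.12 with the larger throughout. Where the smaller was impossible the larger stood in, for 14 of 21 mitotic and 2 of 10 S phase genes with CMV. The value of -0.093 therefore mixes the solutions unequally between the classes. With hTNNT2 (0.036 as deposited) it was 0.30 in the Wald statistic. It was 0.0069 with the smaller solution wherever that was possible, again a mixture, as 8 of 21 mitotic and 1 of 10 S phase genes took the larger. With the larger throughout it was -0.13, which reverses it. The cause was not tested. Leaving out Mki67, Top2a and Ccna2, or taking means, kept both signs. With the sampling limit lowered by 10%, an alternative chosen after seeing the data, the mitotic genes with a single solution numbered 12 (CMV) and 6 (hTNNT2). Leaving out single mice was not run, since it needs values per mouse. No paired analysis was possible because the tables hold no values of single mice. The depth of each library was not used, so what it limits is not given.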
